A study of Mus musculus with 27 samples.

Results

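The genes described here make, sense and export sterols and make fatty acids in cultures of mouse bone marrow. They are 35 listed genes out of 19935 genes tested, taken by name and not by a measured value, though with earlier results of these data known. The mevalonate stage of sterol synthesis is represented by 6 genes, the later stage from squalene to cholesterol by 11, the control of the SREBP factors by 6, the LXR receptor with sterol efflux by 4, and fatty acid synthesis by 8. All 35 were on the arrays through a probe set annotated to that symbol alone, and their mean levels lay between the 53.2 and 94.7 percentiles of all genes. No member was lost to a filter on low values, since none was applied.

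Bone marrow cells from the femurs and tibiae of C57BL/6 mice aged 8 to 12 weeks were measured on 27 arrays. The 9 groups of 3 biological replicates were unstimulated cells, 4 groups given Flt3 ligand (Flt3-L, about 200 ng/ml) and harvested at 12 h, 24 h, 48 h or 11 days, and 4 groups that received cyclosporin A (CsA) besides Flt3-L and were harvested at the same times. CsA was used at 2 µg/ml from 30 min before Flt3-L until harvest. The mice carried no mutation named in the labels, no group held CsA without Flt3-L, and the Flt3-L came from transfected B16 tumor cells, a source shared by every stimulated culture. Flt3-L is a growth factor that drives marrow progenitors toward dendritic cells. CsA inhibits calcineurin, the phosphatase that activates the NFAT transcription factors, and the study asked how that pathway bears on myeloid cell formation. Whether the unstimulated cells were cultured at all is not stated in the labels, nor is it stated whether a solvent was added to the cultures without CsA. No group without Flt3-L carries a culture time. In comparisons with unstimulated cells, Flt3-L and time in culture therefore cannot be told apart.

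Cells build cholesterol from acetyl-CoA through mevalonate, isoprenoid units, squalene and lanosterol. When the sterol content of the endoplasmic reticulum falls, the escort protein Scap carries the precursor of SREBP2 (gene Srebf2) to the Golgi, where its active part is released and turns on the enzymes of the pathway, while Insig proteins hold Scap back when sterols are plentiful. When sterols accumulate, oxidised forms activate the LXR receptors, which raise the exporters Abca1 and Abcg1, the ubiquitin ligase Mylip and Srebf1, whose product favours fatty acid genes. Macrophages take up lipid from the cells they engulf and are known for strong LXR responses.

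The median intensity of an array was 114.2 at the lowest and 124.8 at the highest. For 25 of the 27 arrays the nearest other array belonged to the same group. In the CsA groups at 12 h and at 24 h, array number 3 was instead nearest to array number 3 of the matching group without CsA. Counts of called members that use these arrays are given with and without them. Levels are per-array intensities of a single probe set and are not compared between genes. A change is a difference of mean log2 intensities ± SE from limma with n = 3 arrays a group, and a gene was called higher or lower at a Benjamini-Hochberg adjusted p under 0.05 over all genes. The p-values measure the spread between these cultures, and in bulk RNA fewer cells of a type and less RNA per cell cannot be told apart.

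Cholesterol synthesis genes rose within 12 h of Flt3-L and stayed above the unstimulated cells through 11 days. Of the 17 enzymes of both stages, 15 were called higher at 12 h, 15 at 24 h, 15 at 48 h and 16 at 11 days, and none was called lower at any of these times. Among all genes 17.8% were called higher at 12 h, 17.9% at 24 h, 18.5% at 48 h and 27.2% at 11 days. The median change of the 17 was 0.84 at 12 h, 0.68 at 24 h, 0.67 at 48 h and 0.85 at 11 days, against 0.05, 0.04, 0.01 and 0.02 over all genes. The 4 comparisons share the unstimulated arrays, so they are not independent of each other.

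Hmgcs1, which makes the precursor of mevalonate, gave intensities of 398, 482 and 461 in unstimulated cells. After 12 h of Flt3-L the 3 arrays read 1286, 1242 and 1266, a change of 1.5 ± 0.07 (2.84-fold, adjusted p = 3.9e-15). At 11 days they read 1525, 1490 and 1467, 1.74 ± 0.07 above the unstimulated cells. Each stimulated array lay far above each unstimulated array, and the level at 11 days was also 0.28 ± 0.07 above that at 48 h (adjusted p = 0.00086). Idi1 and Fdps, which make and join the isoprenoid units, rose by 0.91 ± 0.06 and 0.92 ± 0.10 at 12 h and were highest at that time among the groups without CsA. Idi1 then fell by 0.23 between 12 h and 24 h (adjusted p = 0.016), a call lost on leaving out any of 4 of the 6 arrays singly, with changes of -0.21 to -0.22. The decarboxylase Mvd and the kinase Mvk were called higher at all 4 times, Mvd by 0.84 at 12 h and 1.01 at 11 days, Mvk by 0.43 to 0.54. Pmvk, the second kinase of the stage, was called at 12 h (0.28 ± 0.08) and 11 days (0.22 ± 0.08), and changed by 0.05 and -0.01 at 24 h and 48 h.

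In the later stage Msmo1 and Cyp51 rose most. Msmo1, which removes the C4 methyl groups, gave 583, 679 and 647 in unstimulated cells. It read 1428, 1477 and 1561 after 12 h and 1912, 2220 and 1961 after 11 days, changes of 1.23 ± 0.07 and 1.67 ± 0.07. Cyp51, the lanosterol demethylase, went from 183, 195 and 221 to 421, 441 and 462 at 12 h and to 517, 548 and 537 at 11 days (1.15 ± 0.07 and 1.42 ± 0.07). Both genes had no overlap between unstimulated and stimulated arrays. Squalene epoxidase Sqle and lanosterol synthase Lss followed the same course, with 0.99 ± 0.07 and 0.96 ± 0.07 at 12 h and 1.35 ± 0.07 and 1.14 ± 0.07 at 11 days.

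Other enzymes of the stage rose late or only for a time. Dhcr7, which acts at the last step of the pathway, changed by 0.11 ± 0.07 at 12 h (not called) and rose by 1.06 ± 0.07 at 11 days, with 294, 330 and 314 in unstimulated cells and 635, 655 and 665 at 11 days. Tm7sf2, a sterol reductase, rose by 0.34 ± 0.07 at 12 h and 1.16 ± 0.07 at 11 days, and the isomerase Ebp was called from 48 h on (0.39 ± 0.10 and 0.47 ± 0.10). Fdft1, squalene synthase, went the other way in time. Its arrays read 1002, 1001 and 1019 unstimulated, 1488, 1523 and 1608 at 12 h, 1112, 1256 and 1170 at 24 h, and 877, 951 and 974 at 11 days. The rise of 0.61 ± 0.06 at 12 h was followed by a fall of 0.39 from 12 h to 24 h (adjusted p = 1.7e-05) and a further fall of 0.24 from 48 h to 11 days, and at 11 days the difference from unstimulated cells was -0.11 ± 0.06 (not called). A second Fdft1 probe set gave 0.48 at 12 h and -0.04 at 11 days.

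**Figure D1:**
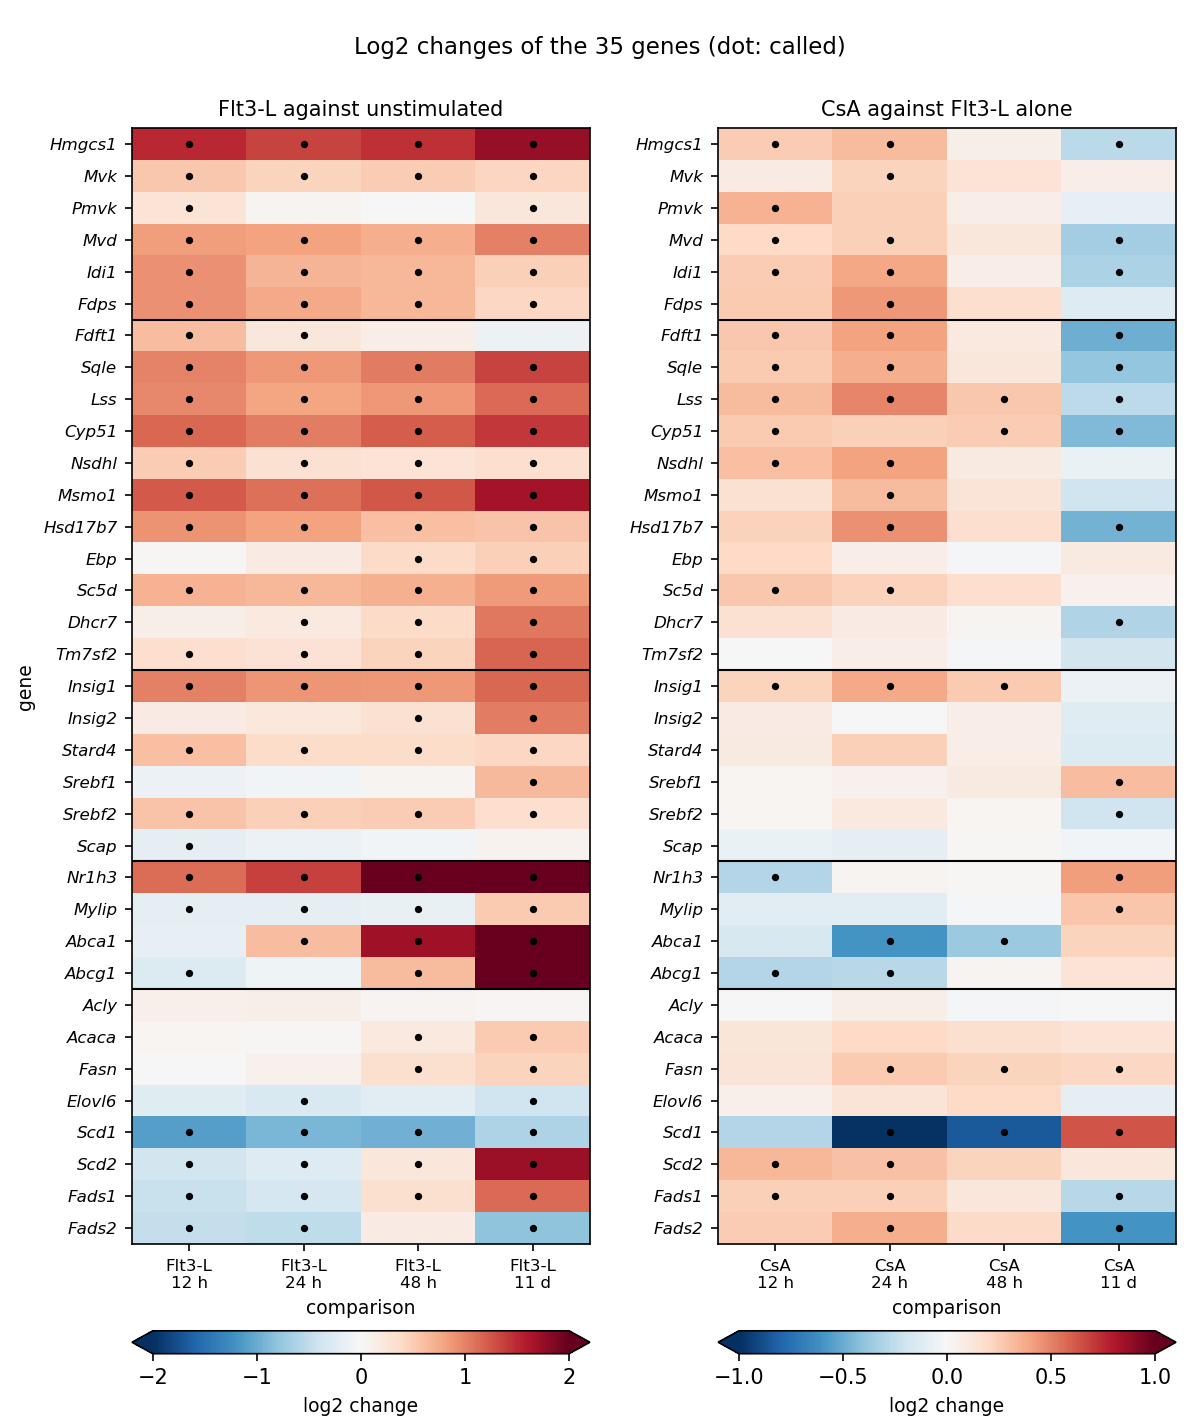
Log2 change of each of the 35 genes (rows, grouped by list) in the 4 comparisons of Flt3-L with unstimulated cells (left) and of CsA with Flt3-L alone (right); red is higher, blue lower, values past the ends of each colour bar take the end colour, and a dot marks a call. The sterol enzymes are red in all 4 Flt3-L columns, apart from calls missed by Ebp and Dhcr7 at 12 h, Ebp at 24 h, Pmvk at 24 h and 48 h and Fdft1 at 48 h and 11 days, and many turn from red to blue between CsA at 24 h and CsA at 11 days.

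The genes that control the SREBP factors split into those that rose at once and those that rose later. Insig1, an SREBP target that feeds back on Scap, read 708, 800 and 682 in unstimulated cells. It read 1472, 1443 and 1490 at 12 h and 1663, 1587 and 1590 at 11 days (1.01 ± 0.06 and 1.15 ± 0.06). Srebf2, the factor for the sterol genes, was called higher at all 4 times, from 1047, 1108 and 1108 to 1589, 1585 and 1658 at 12 h (0.57 ± 0.04). It then fell by 0.17 from 48 h to 11 days (adjusted p = 0.0025). The sterol carrier Stard4 rose by 0.60 ± 0.07 at 12 h and was called at each later time at 0.36 to 0.41. Insig2 changed by 0.16 ± 0.09 at 12 h (not called) and rose by 0.30 at 48 h and 1.03 ± 0.09 at 11 days. Srebf1 was level until 48 h, with changes of -0.11, -0.05 and 0.06 that were not called, and rose by 0.65 ± 0.06 at 11 days, from 418, 439 and 425 to 701, 593 and 727. Scap fell by 0.18 at 12 h (adjusted p = 0.0057), a call lost on quantile normalization, and was not called against unstimulated cells later.

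The region before the start site was read for 27 of the 35 members, those held in the RefSeq promoter table (build GRCm38.p6). The 250 bases before each of their 36 listed starts were searched on both strands. CCAAT, the box bound by the factor NF-Y, which works beside SREBPs, was found in 20 of the 27 members (74.1%) and in 37.5% of the 27025 genes of the table. All 14 sterol enzymes in the table had it, as did 4 of 5 SREBP control genes, 1 of 3 LXR and efflux genes (Mylip) and 1 of 5 fatty acid genes (Fasn). GGGCGG, the box of the Sp1 family, was found in 22 members (81.5%) and 35.4% of genes. The sterol element TCACNCCAC was found in Hmgcs1 only (3.7% of members, 1.22% of genes). The repeat bound by LXR was found in no member in its exact form (0.0148% of genes) and in Dhcr7 with up to 2 mismatches (2.96% of genes). The Dhcr7 match lay before a start inside the annotated span of that gene. These are matches of letters in a short window, with no test. The windows of Hmgcs1, Idi1, Cyp51, Msmo1 and Insig1, follow because these genes rose at 12 h and carried the boxes. They are written 5′ to 3′ on the coding strand, and capitals mark the CCAAT box, the GGGCGG box and the sterol element, read on either strand.
Hmgcs1, chr13:119690101-119690260, plus strand, 250 to 91 bases before the start: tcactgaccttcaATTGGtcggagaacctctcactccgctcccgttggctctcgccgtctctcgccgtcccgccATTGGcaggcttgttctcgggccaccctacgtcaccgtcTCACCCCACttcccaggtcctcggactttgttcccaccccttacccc
Idi1, chr13:8885526-8885605, plus strand, 80 to 1 bases before the start: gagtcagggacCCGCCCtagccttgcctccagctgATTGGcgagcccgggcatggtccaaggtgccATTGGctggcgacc
Cyp51, chr5:4104698-4104777, minus strand, 80 to 1 bases before the start: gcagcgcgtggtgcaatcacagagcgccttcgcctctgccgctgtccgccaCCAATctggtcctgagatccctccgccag
Msmo1, chr8:64733592-64733671, minus strand, 93 to 14 bases before the start: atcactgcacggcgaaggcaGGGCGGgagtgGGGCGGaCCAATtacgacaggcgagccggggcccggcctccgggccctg
Insig1, chr5:28071162-28071241, plus strand, 250 to 171 bases before the start: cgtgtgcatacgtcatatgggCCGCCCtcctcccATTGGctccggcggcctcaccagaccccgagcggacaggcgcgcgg
Each window lies upstream of the annotated start of its gene, outside that gene's exons and introns.

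**Figure D2:**
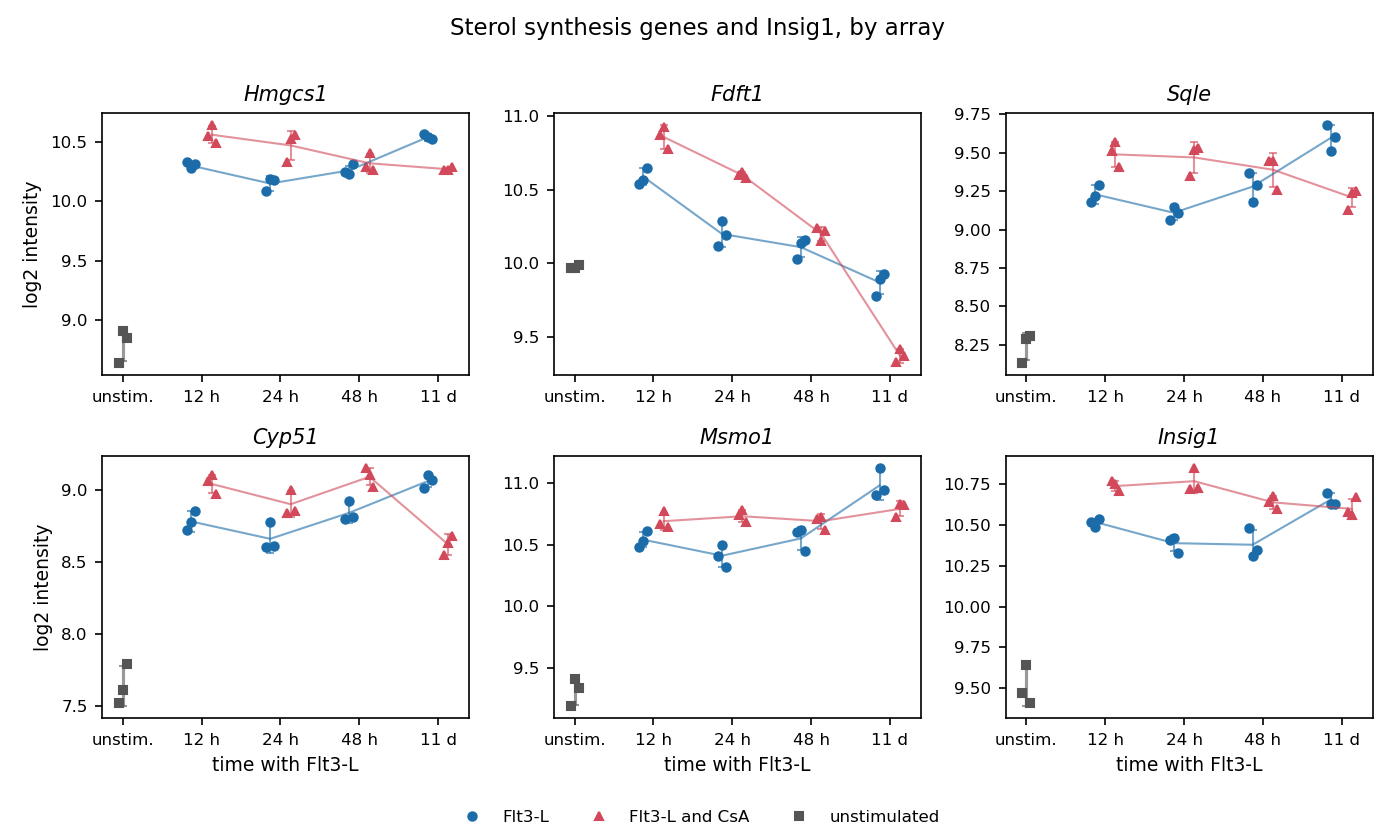
Log2 intensity of Hmgcs1, Fdft1, Sqle, Cyp51, Msmo1 and Insig1 in each array (points), with group means joined by lines and SD as bars, for unstimulated cells (squares), Flt3-L (circles) and Flt3-L with CsA (triangles), each panel with its own axis. CsA arrays lie above those without it at 12 h and 24 h and, except for Insig1, whose arrays overlap, below them at 11 days.

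The LXR gene Nr1h3 and both exporters ended with the 3 largest changes of the 35 genes at 11 days. Nr1h3, which encodes LXR alpha, read 150, 121 and 140 in unstimulated cells and 303, 308 and 276 after 12 h (1.11 ± 0.08). It read 567, 558 and 536 at 48 h and 1008, 1086 and 1023 at 11 days (2.02 ± 0.08 and 2.93 ± 0.08), and each step after 24 h was called. Abca1, the exporter that loads cholesterol onto apolipoproteins, started later: 310, 293 and 305 unstimulated, 272, 273 and 266 at 12 h (-0.16 ± 0.07, not called), and 429, 478 and 476 at 24 h. It reached 948, 969 and 1030 at 48 h and 4938, 4232 and 4662 at 11 days, 3.93 ± 0.07 above unstimulated cells (15.2-fold, adjusted p = 6.8e-24). Its rise of 2.23 ± 0.07 from 48 h to 11 days was the largest of the 35 over that interval. Abcg1, the second exporter, fell by 0.28 at 12 h and rose by 0.63 ± 0.07 at 48 h and 2.45 ± 0.07 at 11 days, from 712, 776 and 744 to 4310, 3683 and 4192. Mylip, the ubiquitin ligase that LXR induces, was called lower by 0.18, 0.20 and 0.15 at 12 h, 24 h and 48 h and higher by 0.53 ± 0.05 at 11 days. Its call at 48 h was lost with only the 6 arrays compared (adjusted p = 0.078) and on leaving out 4 of these arrays singly, with changes of -0.13 to -0.16. At 11 days all 4 genes of the list were called higher, with a median of 2.69.

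Fatty acid genes did not share the early rise. At 12 h, 4 of the 8 were called lower and none higher, at 24 h 5 lower, at 48 h 4 higher and 1 lower, and at 11 days 4 higher and 3 lower. Among all genes 18.1%, 17.7%, 18.6% and 24.8% were called lower at these times. Scd1, the delta-9 desaturase of the lipogenic tissues, read 1275, 1306 and 1437 in unstimulated cells and 608, 599 and 661 at 12 h, a fall of 1.10 ± 0.11 on the log2 scale (adjusted p = 6.9e-09). At 11 days it read 1018, 749 and 888, a log2 change of -0.61 from unstimulated cells. Scd2, its sister gene, fell by 0.37 at 12 h and then climbed, from 1231, 1299 and 1287 unstimulated to 4191, 4215 and 4116 at 11 days (1.71 ± 0.07). The sister desaturases thus ended on opposite sides of the unstimulated level.

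The delta-5 and delta-6 desaturases, Fads1 and Fads2, fell together and then parted. Fads1 read 1010, 976 and 1098 unstimulated, 769, 751 and 738 at 12 h and 2282, 2272 and 2239 at 11 days (changes of -0.45 ± 0.06 and 1.14 ± 0.06). Fads2 read 859, 854 and 964 unstimulated, 631, 650 and 630 at 12 h, 982, 1036 and 973 at 48 h and 520, 517 and 500 at 11 days. It thus rose by 0.67 ± 0.08 from 24 h to 48 h and fell by 0.96 from 48 h to 11 days (adjusted p = 4.2e-10), the largest fall of the 35 over that interval. Fasn and Acaca, which build the chain, were called higher from 48 h on, Fasn by 0.32 ± 0.05 and 0.45 ± 0.05, Acaca by 0.19 ± 0.06 and 0.52 ± 0.06. The call of Acaca at 48 h was lost with a gene's probe sets averaged, with only the groups compared and without the first unstimulated array (0.12, adjusted p = 0.12). The elongase Elovl6 was called lower at 24 h (-0.31 ± 0.10) and 11 days (-0.40 ± 0.10). With the replicate numbers as a block, Elovl6 was also called lower at 12 h (-0.25, adjusted p = 0.045). Its call at 24 h was lost on quantile normalization (adjusted p = 0.058) and without the third unstimulated array or the third array at 24 h. Acly, which supplies cytosolic acetyl-CoA to both pathways, was not called in any of the 14 comparisons, with 1049, 1087 and 1043 in unstimulated cells and 1114, 1017 and 1104 at 11 days.

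From step to step, few members moved between 12 h and 24 h, and most moved between 48 h and 11 days. Between 12 h and 24 h, 1 member was called higher (Abca1, 0.77 ± 0.07) and 4 lower (Fdft1, Idi1, Stard4 and Nsdhl, by 0.39 to 0.21), against 5.59% and 5.52% of genes. The count of 4 lower was 1 or 2 without any of 5 of the 6 arrays, the second array at 24 h excepted, and the count of 1 higher was 2 without the first array at 12 h. From 24 h to 48 h, 8 were called higher against 9.71% of genes, led by Abca1 (1.09 ± 0.07), Abcg1 (0.72 ± 0.07), Fads2 and Nr1h3 (0.66 ± 0.08). By limma none was called lower against 7.43% of genes, and 1 lower at an unadjusted p under 0.05. With the replicate block Hsd17b7 was called lower (-0.21, adjusted p = 0.037) and Cyp51 higher (0.18, adjusted p = 0.046), and without the first array at 24 h 1 member was called lower. From 48 h to 11 days, 22 were called higher and 5 lower (Fads2, Fdft1, Fdps, Idi1 and Srebf2), against 24.2% and 18.8% of genes. The 5 lower were 2 when array medians were subtracted and 3 without the first array at 11 days. The call of the farnesyl diphosphate synthase Fdps was lost with array medians subtracted, with only the 6 arrays compared (adjusted p = 0.078) and without the third array at 48 h or the first or second at 11 days, with 1304, 1270 and 1548 at 48 h and 1185, 1044 and 1248 at 11 days (-0.24 ± 0.10).

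**Figure D3:**
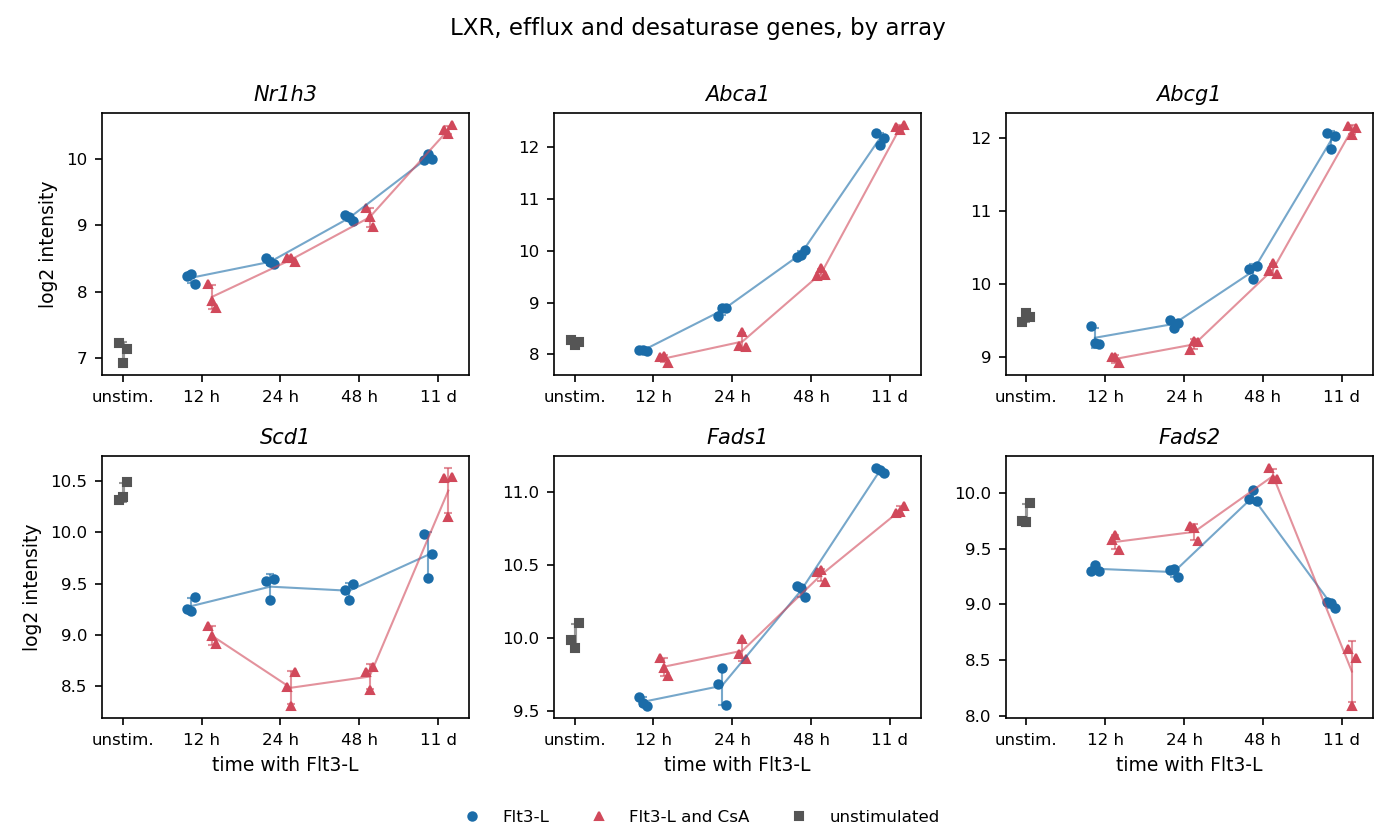
Log2 intensity of Nr1h3, Abca1, Abcg1, Scd1, Fads1 and Fads2 in each array (points), with group means joined by lines and SD as bars, for unstimulated cells (squares), Flt3-L (circles) and Flt3-L with CsA (triangles), each panel with its own axis. Abca1 climbs from about 8.08 at 12 h to 12.17 at 11 days, Scd1 with CsA lies below Scd1 without it up to 48 h and above it at 11 days, and Fads1 and Fads2 part after 48 h.

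Among all genes, 17.8% were called higher and 18.1% lower at 12 h of Flt3-L, and 27.2% and 24.8% at 11 days. Of 16 further sterol genes, 7 were called higher and 3 lower at 12 h, and 8 and 3 at 11 days. Lipa, Npc1 and Nceh1 had the largest rises of these at 12 h and were called higher at every time. Lipa, the lysosomal acid lipase, rose by 1.43 ± 0.05 at 12 h and 2.59 ± 0.05 at 11 days, Npc1 by 1.15 ± 0.05 and 2.11 ± 0.05, and Nceh1, a cholesteryl ester hydrolase, by 1.07 ± 0.05 and 2.14 ± 0.05. Of 8 further LXR genes, 4 were called higher and 2 lower at 12 h, and 5 and 1 at 11 days. Apoe, the apolipoprotein that accepts exported cholesterol, rose by 0.73 ± 0.08 and 2.52 ± 0.08, and Pltp, the phospholipid transfer protein, by 0.25 ± 0.09 and 3.55 ± 0.09. Lpcat3, a phospholipid remodelling enzyme that is also an LXR target, fell by 0.83 at 12 h. Of 19 further lipogenic and lipid uptake genes, 5 were called higher and 3 lower at 12 h, and 9 and 6 at 11 days. Lpl, lipoprotein lipase, rose by 0.90 ± 0.12 and 4.54 ± 0.12, while Dgat2, which makes triglyceride, fell by 2.85 at 11 days.

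The marker genes of the cell types changed strongly over the same interval, and their part in the results above was not tested. Of 12 monocyte and macrophage markers, 7 were called higher and 4 lower at 12 h, and 12 higher at 48 h and at 11 days. Their mean log2 level per array was 8.85 to 9.02 in unstimulated cells, 9.29 to 9.54 at 12 h, 11.23 to 11.29 at 48 h and 12.05 to 12.10 at 11 days. The mean level of 10 neutrophil markers went from 12.40 to 12.43 unstimulated, through 12.31 to 12.33 at 12 h, to 7.70 to 7.91 at 11 days. That of 9 division markers of the G2 and M phases went from 11.21 to 11.28, through 10.74 to 10.79, to 9.29 to 9.48. That of 8 erythroid markers went from 11.50 to 11.66, through 10.52 to 10.74, to 6.85 to 7.02. Beside the fall of Scd1, a gene also high in fat cells, 2 of 7 adipocyte markers and 6 of 7 stromal markers were called lower at 12 h, against 18.1% of all genes, and the other 5 adipocyte markers were not called. The mean log2 level of the adipocyte list was 6.35 to 6.40 in unstimulated cells and 6.14 to 6.18 at 12 h, and that of the stromal list 7.55 to 7.71 and 6.73 to 6.77. The adipokine Adipoq went from a mean log2 level of 5.58 to 4.73 and Car3 from 6.82 to 6.06, and the stromal chemokine Cxcl12 from 7.69 to 6.15. Their means over the 27 arrays were low, at the 12.2, 25.9 and 33.0 percentiles of all genes.

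CsA added to the rise of the sterol genes in Flt3-L cultures during the first day. At 12 h, 13 of the 35 members were called higher with CsA than without and 2 lower, against 2.82% and 3.91% of genes, and at 24 h 17 higher and 3 lower, against 1.6% and 2.19%. Among the 17 sterol enzymes 10 were called higher at 12 h and 12 at 24 h, and none lower. Their median change was 0.25 and 0.32, against -0.04 and -0.01 over all genes. The 2 times have separate control arrays but share the variance estimate of 1 model. Called higher at both were 8 enzymes, which is 80% of those at 12 h and 66.7% of those at 24 h. With 10 and 12 of the 17 called, much of this overlap follows from the counts alone. The largest of these changes was 1.4-fold. The CsA arrays lay wholly above those without it for 15 of the 17 enzymes at 12 h, 14 at 24 h and 7 at 48 h, against 12%, 7.41% and 11.7% of genes, and wholly below for none, against 16.3%, 9.19% and 7.45%.

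The counts at 12 h depended on how the spread was estimated. With only the 6 arrays compared, 1 member was called higher and none lower, while limma then called 86 and 91 of all genes. Leaving out single arrays gave 7, 7 and 8 members higher without Flt3-L arrays 1, 2 and 3, and 5, 3 and 14 without CsA arrays 1, 2 and 3. The 2 lower became 0 without Flt3-L array 1 or CsA array 2 and 1 without Flt3-L array 2 or CsA array 3. At 24 h, 9 were called higher with only the 6 arrays compared, 10 without the third Flt3-L array and 11 without the second CsA array. Without the 2 CsA arrays that lay closest to an array without CsA, 14 members were called higher and 1 lower at 12 h, and 14 higher and 3 lower at 24 h. The enzymes Mvd, Fdps and Sc5d lost their calls at 24 h without these arrays (0.24, 0.38 and 0.22, adjusted p = 0.058, 0.073 and 0.077), and Nr1h3 its call at 12 h (-0.21, adjusted p = 0.092), while Fads2 was called at 12 h (0.28, adjusted p = 0.044). The median change of the 17 enzymes was then 0.28 at 12 h and 0.27 at 24 h, and 6 enzymes were called higher at both times. Their CsA arrays lay wholly above for 15 and 14 of the 17, against 19.8% and 10.9% of genes, and wholly below for 1 and 0, against 33.4% and 14.3%. Of the members called with CsA on all arrays, some kept the call whichever single array was left out. At 12 h these were 3 of 15 members and at 24 h 11 of 20. At 48 h they numbered 2 of 6, and 15 of 17 did so after 11 days. Those at 12 h were Fdft1, Nsdhl and Scd2.

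Lss gave the largest rise among the enzymes at 24 h. Its arrays read 290, 295 and 292 at 12 h without CsA and 388, 386 and 322 with it (0.32 ± 0.07, adjusted p = 0.0088). At 24 h they read 254, 270 and 258 without CsA and 331, 394 and 373 with it (0.49 ± 0.07, adjusted p = 7.8e-05). The third CsA array at 12 h was the lowest of its group, and all CsA arrays still lay above all arrays without it. At 12 h the call of Lss was lost without the first or the second CsA array (adjusted p = 0.063 and 0.067).

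Squalene synthase and the sterol dehydrogenases were raised as well. Fdft1 read 1488, 1523 and 1608 at 12 h without CsA and 1876, 1947 and 1753 with it, and 1112, 1256 and 1170 against 1550, 1573 and 1532 at 24 h (0.27 ± 0.06 and 0.40 ± 0.06). Hsd17b7, a 3-keto sterol reductase, changed by 0.23 ± 0.08 at 12 h (not called) and rose by 0.46 ± 0.08 at 24 h, from 572, 647 and 682 to 787, 886 and 933. Nsdhl, the dehydrogenase of the C4 demethylation complex, rose by 0.30 ± 0.06 and 0.40 ± 0.06, with 803, 898 and 899 at 24 h without CsA and 1154, 1181 and 1089 with it. Of the mevalonate stage, Pmvk rose at 12 h (0.35 ± 0.08, from 191, 179 and 184 to 230, 248 and 228), a call lost without the second Flt3-L or the second CsA array (adjusted p = 0.051 and 0.081). Sc5d, the C5 desaturase, rose at 12 h from 845, 932 and 960 to 1059, 1153 and 1094 (0.27 ± 0.06). This call was lost without the second CsA array (adjusted p = 0.052). Fdps rose at 24 h from 1221, 1496 and 1664 to 1841, 1930 and 2095 (0.43 ± 0.10), with a wide spread among the arrays without CsA. It was 0.31 (adjusted p = 0.11) without the first Flt3-L array and 0.38 (adjusted p = 0.067) without the third CsA array. Cyp51 was called at 12 h (0.26 ± 0.07), a call lost with only the groups compared and on leaving out 4 of the 6 arrays singly (adjusted p up to 0.13). At 24 h it was called with the replicate block (0.24, adjusted p = 0.026 against 0.053 without it).

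Insig1 was the SREBP control gene called higher with CsA at each early time, by 0.22 ± 0.06, 0.38 ± 0.06 and 0.26 ± 0.06. Its call at 12 h was lost on leaving out 5 of the 6 arrays singly (adjusted p up to 0.092), that at 48 h without the second Flt3-L array (0.22, adjusted p = 0.059), and both with only the groups compared. At 24 h it read 1358, 1374 and 1283 without CsA and 1688, 1845 and 1703 with it. Srebf2, Srebf1, Insig2 and Scap changed by no more than 0.10 in either direction at 12 h, 24 h or 48 h, and none was called. Stard4 changed by 0.09, 0.24 and 0.07 at these times and was not called by limma (adjusted p = 0.069 at 24 h). Averaged over these times it was called higher (0.13), a call lost on leaving out 12 of the 18 arrays singly.

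Each exporter was called lower with CsA at 2 of the 3 early times. Abca1 changed by -0.16 ± 0.07 at 12 h (not called). It read 429, 478 and 476 at 24 h without CsA and 287, 348 and 284 with it, and 948, 969 and 1030 against 728, 821 and 738 at 48 h. The changes were -0.60 ± 0.07 (adjusted p = 9.6e-06) and -0.37 ± 0.07 (adjusted p = 0.0023), and no array with CsA reached those without. Abcg1 was lower by 0.29 and 0.28 at 12 h and 24 h, with 683, 583 and 579 against 513, 513 and 480 at 12 h, and 722, 676 and 703 against 545, 596 and 588 at 24 h. Its calls were lost with only the groups compared (adjusted p = 0.10 and 0.059). They were also lost without the first Flt3-L array at either time (adjusted p = 0.10 and 0.099), without the second CsA array at 12 h, and at 24 h without the third Flt3-L or the first CsA array. At 48 h Abcg1 changed by 0.03 (not called). Nr1h3 was called lower at 12 h (-0.29 ± 0.08) from arrays that overlapped, 303, 308 and 276 against 278, 233 and 217. That call was lost in 3 of 8 other settings and on leaving out 4 of the 6 arrays singly.

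Among the fatty acid genes CsA lowered Scd1 and raised the others that were called. Scd1 read 740, 647 and 746 at 24 h without CsA and 361, 316 and 396 with it, a fall of 0.99 ± 0.11 on the log2 scale (adjusted p = 1.7e-06). At 48 h it read 696, 648 and 725 against 397, 351 and 409 (-0.84 ± 0.11). At 12 h the arrays also lay apart, 608, 599 and 661 against 540, 508 and 480, and the change of -0.29 ± 0.11 was not called (adjusted p = 0.091). Scd2 was raised at 12 h and 24 h (0.33 ± 0.07 and 0.29 ± 0.07), with 942, 1035 and 986 at 12 h without CsA and 1284, 1304 and 1138 with it. Fads1 was raised at both times (0.24 ± 0.06 and 0.24 ± 0.06), and Fads2 at 24 h (0.36 ± 0.08). The call of Fads1 was lost on leaving out 3 of 6 arrays singly at 12 h (adjusted p up to 0.092) and 2 of 6 at 24 h (up to 0.14). That of Fads2 at 24 h was lost in 3 of 6 such omissions (up to 0.06), as was that of Scd2 (up to 0.076). Fasn was raised at 24 h and 48 h (0.26 ± 0.05 and 0.22 ± 0.05). With only the groups compared, the calls of Scd2, Fads1 and Fasn were lost at each of these times, and that of Fasn at 48 h also on leaving out 3 of the 6 arrays singly (adjusted p up to 0.095). With the replicate block, Acaca was called higher at 24 h (0.20, adjusted p = 0.049) and Scd2 at 48 h (0.22, adjusted p = 0.023).

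At 48 h fewer members were called: 4 higher and 2 lower, against 2.17% and 2.34% of genes. The 4 were Lss (0.27 ± 0.07), Insig1, Cyp51 (0.25 ± 0.07) and Fasn, and the 2 were Scd1 and Abca1. Lss read 271, 277 and 274 without CsA and 335, 337 and 317 with it. Cyp51 read 445, 484 and 449 against 567, 550 and 520, Insig1 1429, 1272 and 1306 against 1594, 1640 and 1550, and Fasn 956, 901 and 881 against 1122, 1070 and 1008. In each of these the CsA arrays lay above those without it. None of the 4 was called with only the 6 arrays compared, 7 members were called after quantile normalization, 1 without the second or the third Flt3-L array or the first CsA array, and 2 without the second CsA array. With the replicate block Sc5d was called as well (0.17, adjusted p = 0.043). The CsA effect at 48 h was compared with that at 12 h. No member was called for a difference, higher or lower, against 0.441% and 0.331% of genes, and the largest difference was that of Scd1 (-0.55 ± 0.15, adjusted p = 0.085). Scd1 was called in 3 of 8 other settings and Pmvk and Nsdhl in 1 each. The count of none is limma's, and at an unadjusted p under 0.05 2 were higher and 5 lower. There, 1 member was called lower without the third CsA array at 12 h.

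Averaged over 12 h, 24 h and 48 h, CsA raised 21 of the 35 members and lowered 3, against 7% and 6.41% of genes. The counts were the same without the 2 CsA arrays closest to an array without CsA. Of the 17 sterol enzymes, 14 were raised, Lss most (0.36 ± 0.04), with Hsd17b7 and Fdps at 0.29. The 3 not called were Ebp (0.09), Dhcr7 (0.09) and Tm7sf2 (0.02), enzymes that in cultures without CsA rose mainly at late times. Beside this, the B lineage markers were called lower for 7 of 9, with a mean log2 level of 9.78 to 9.94 at 48 h without CsA and 9.28 to 9.55 with it. Of 12 macrophage markers 3 were called lower and 1 higher, with 10.46 to 10.58 at 24 h without CsA and 10.47 to 10.62 with it. At 12 h, Adgre1 (-0.64) and Csf1r (-0.3) were called lower and no other of that list was called. At 24 h Adgre1 was again called lower (-0.28), with the neutrophil markers Ly6g and Cxcr2 and the B lineage marker Cd79a (-0.43). So were the conventional dendritic cell markers Cd209a, H2-Ab1 and H2-Aa. The erythroid marker Rhag was called higher (0.27), and no other of these lists was called at 24 h. Over the early mean 3 of 8 erythroid and 4 of 9 division markers were called higher. Their part in the effect on the members was not tested.

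At 11 days the pattern had turned. CsA lowered 12 of the 35 members and raised 5, against 7.08% and 4.92% of genes. Of the 17 sterol enzymes 9 were called lower and none higher, with a median change of -0.26 against 0.03 over all genes. The arrays with CsA lay wholly below those without it for 11 enzymes, against 12.6% of all genes, and wholly above for none, against 17.2%.

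Fdft1 fell most among the enzymes, from 877, 951 and 974 without CsA to 641, 686 and 660 with it (-0.49 ± 0.06, adjusted p = 3.7e-07). Its second probe set gave -0.52. Hsd17b7 read 535, 517 and 558 without CsA and 377, 397 and 392 with it (-0.47 ± 0.08). Cyp51 read 517, 548 and 537 against 374, 396 and 411 (-0.44 ± 0.07), and Sqle 818, 729 and 776 against 562, 603 and 610 (-0.39 ± 0.07). In these 4 genes no array with CsA reached the lowest without it. Mvd, Idi1, Dhcr7, Hmgcs1 and Lss were lower by 0.35 to 0.26, and the call of Lss was lost with only the 6 arrays compared and on leaving out 2 of them singly. Srebf2 was lower too, from 1383, 1363 and 1394 to 1214, 1173 and 1214 (-0.20 ± 0.04, adjusted p = 0.0021). Insig1 overlapped, with 1663, 1587 and 1590 against 1527, 1505 and 1625 (-0.06 ± 0.06, not called).

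The genes raised at 11 days were of the LXR and lipogenic kind. Nr1h3 rose from 1008, 1086 and 1023 to 1386, 1333 and 1457 (0.42 ± 0.08, adjusted p = 0.00061), Mylip from 1664, 1573 and 1780 to 2098, 1887 and 2096 (0.28 ± 0.05), and Srebf1 from 701, 593 and 727 to 848, 777 and 867 (0.31 ± 0.06). The arrays of each lay apart. The calls of Srebf1 and Fasn (0.21 ± 0.05, with 1018, 981 and 995 against 1166, 1071 and 1221) were lost with only the 6 arrays compared (adjusted p = 0.061 and 0.086), and that of Fasn also without the third CsA array (adjusted p = 0.085). Abca1 lay apart as well, 4938, 4232 and 4662 against 5389, 5153 and 5502, and its change of 0.22 ± 0.07 was not called (adjusted p = 0.051). Scd1, lowered by CsA until 48 h, was raised at 11 days, from 1018, 749 and 888 to 1476, 1140 and 1493 (0.63 ± 0.11, adjusted p = 0.00011).

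The fatty acid desaturases Fads2 and Fads1 were lowered at 11 days, Fads2 from 520, 517 and 500 to 388, 273 and 367 (-0.60 ± 0.08) and Fads1 from 2282, 2272 and 2239 to 1842, 1857 and 1915 (-0.28 ± 0.06). The second CsA array was the lowest for Fads2, and all 3 lay below those without CsA. Fads1 and Fads2 therefore moved in 1 direction under CsA at 11 days. In cultures with Flt3-L alone, Fads1 was by then above and Fads2 below the unstimulated cells.

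The change of the CsA effect with time was tested directly, by subtracting the mean of the 3 earlier effects from the effect at 11 days. It was called for 24 of the 35 members, 6 higher and 18 lower, against 5.21% and 6.7% of genes, and 6 higher and 19 lower without the 2 CsA arrays closest to an array without CsA. Among the 17 sterol enzymes 13 were called lower, with a median of -0.41 against 0.04 over all genes, and the 4 others were Mvk, Ebp, Sc5d and Tm7sf2 at -0.20 to 0.00. All 4 LXR and efflux genes were called higher, by 0.32 to 0.59. Scd1 gave the largest difference, 1.34 ± 0.12 (adjusted p = 2.4e-08), and Fads2 the largest in the other direction, -0.86 ± 0.10. Of the 14 enzymes raised in the early mean, 8 were lowered at 11 days (57.1%), and they made up 88.9% of the 9 enzymes lowered then. With 14 of all 17 enzymes raised early, most of any 9 would be among them. The overlap therefore does not single out the enzymes raised early. Acly, Acaca and Fasn, the first enzymes of fatty acid synthesis, were not called, with differences of -0.01, -0.02 and 0.00.

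**Figure D4:**
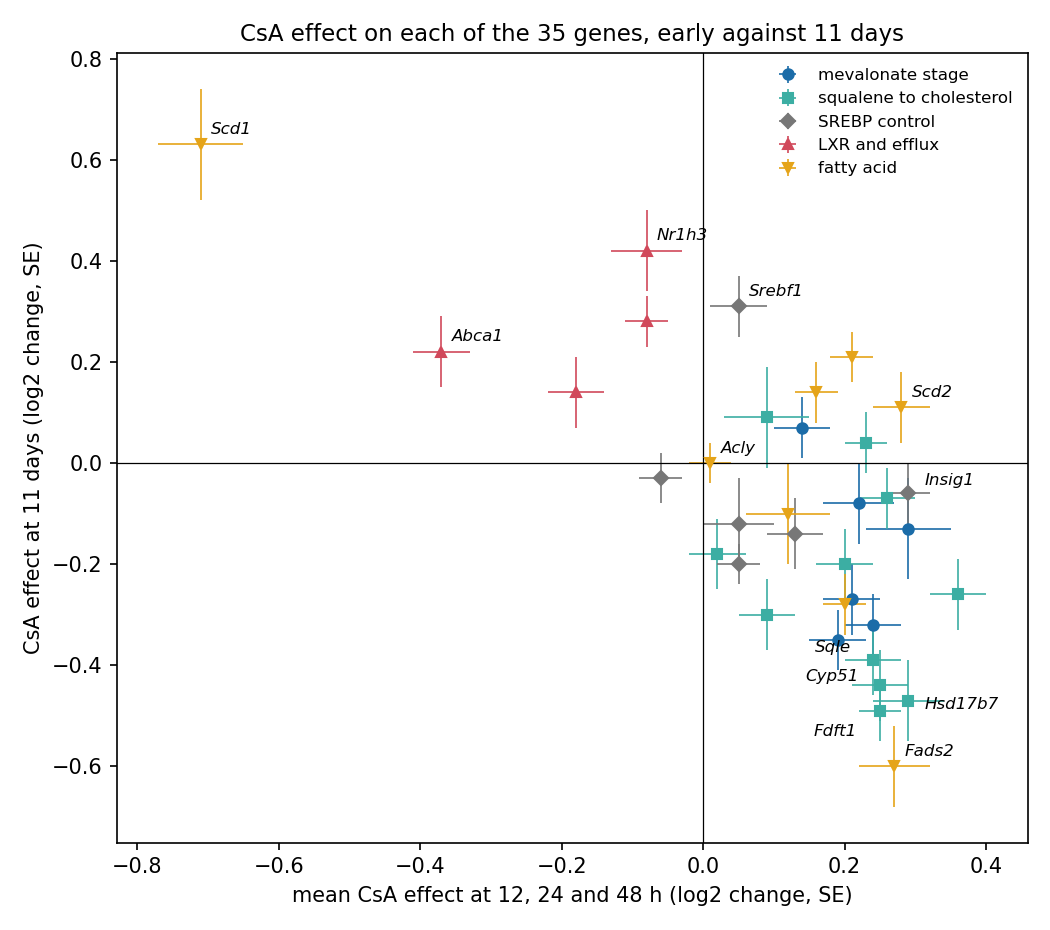
Mean CsA effect at 12 h, 24 h and 48 h (horizontal) against the CsA effect at 11 days (vertical) for each of the 35 genes, as log2 change with SE bars, with colour and shape by list. Most sterol enzymes lie at lower right, raised early and lower at 11 days, and Scd1 lies farthest to the upper left, at -0.71 and 0.63.

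The cultures also differed in markers at 11 days. All 12 conventional dendritic cell markers were called lower with CsA (median -0.88), and their mean log2 level was 10.00 to 10.07 without CsA and 8.98 to 9.44 with it. Of 10 neutrophil markers 9 were lower (median -1.27), with 7.70 to 7.91 against 6.36 to 6.73, and 4 of 7 plasmacytoid dendritic cell, 5 of 8 T and NK cell and 5 of 9 B lineage markers were lower. None of 12 macrophage markers was called, with 12.05 to 12.10 against 12.16 to 12.18. Whether these shifts account for the lower sterol genes was not tested. Division markers were at 9.29 to 9.48 without CsA and 9.40 to 9.47 with it, with 1 of 9 called higher.

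Some further genes of the pathways were called with CsA. Among all genes, 2.82% were called higher and 3.91% lower with CsA at 12 h, and 1.6% and 2.19% at 24 h. At 48 h these shares were 2.17% and 2.34%, and at 11 days 4.92% and 7.08%. Of 16 sterol genes outside the 35, none was called higher and 1 lower at 12 h (Lipa, -0.29 ± 0.05), 1 higher at 24 h (Dhdds, 0.18 ± 0.05), none at 48 h, and 2 higher at 11 days, Npc1 (0.23 ± 0.05) and Rnf145 (0.21 ± 0.05), an Insig-linked ubiquitin ligase. Of 8 further LXR genes, Pltp was lowered at 12 h, 24 h and 48 h (-0.40 ± 0.09, -0.61 ± 0.09 and -0.65 ± 0.09), Apoe at 12 h (-0.38 ± 0.08) and Cyp27a1, a sterol hydroxylase, at 48 h (-0.38 ± 0.08). At 11 days Rxra, the partner receptor of LXR, was raised (0.26 ± 0.08). Of 19 lipogenic and uptake genes, Dgat2 was raised at 12 h and 24 h (0.37 ± 0.10 and 0.42 ± 0.10), Lpl was lowered at 12 h (-0.62 ± 0.12), malic enzyme Me1 was raised at 48 h (0.53 ± 0.09), and Acss2, which makes acetyl-CoA from acetate, and Dgat1 were lowered at 11 days (-0.46 ± 0.13 and -0.24 ± 0.07).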

How the data were processed

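Each of 27 samples gave 1 single-channel Affymetrix array. The authors deposited 1 intensity per probe set, made with RMA according to the submitters' processing notes (version not given in the sources used here). The lowest value is 5.2 and the highest 18180.7, so the scale is linear, and log2 was taken here although log2 values had been planned for. The number of arrays limits the precision.

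Of 28815 probe sets, 21780 carried a single gene symbol in GEO's platform annotation (possibly outdated), 1605 had several and 5430 were not named. Only the first were used, and 998 genes had more than 1, of which the probe set with the highest mean was taken. Among the members these were Idi1, Fdft1 and Acaca, whose second probe set gave the same sign in each called comparison.

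A model of group means over all 27 arrays was run in limma 3.58.1 (R 4.3.3), with moderated variances and p-values adjusted after Benjamini and Hochberg across 19935 genes, and the fit was tested on simulated data. Plots were drawn with matplotlib 3.10.9 in Python 3.11.15. Promoter sequences are RefSeq's, build GRCm38.p6. The members, gene lists, comparisons and naming rule were chosen with earlier results of these data known. Single-array values were given in each comparison for up to 4 called members a direction (5 for CsA) with the largest change and non-overlapping arrays, and for others that illustrate a statement. Genes of the further lists were limited to 4 a list and comparison.

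Whether replicate numbers pair the cultures is not stated in the labels. Arrays of equal number deviated together, with every correlation over 0.1 across genes, for CsA against Flt3-L alone at 24 h (0.37, 0.35 and 0.40) and likewise at 48 h (0.54, 0.18 and 0.19), for Flt3-L at 24 h against unstimulated (0.35, 0.13 and 0.18) and 48 h against 24 h (0.46, 0.45 and 0.41), and barely at 12 h (0.20, 0.14 and 0.10). In these the call with the replicate block is given where it differs. The other comparisons did not have every correlation over 0.1, and CsA against Flt3-L alone at 12 h missed it narrowly (0.19, 0.19 and 0.10). Alternatives were an intensity trend with robust variances, quantile normalization, subtracted array medians, the dimmest genes left out, probe sets of a gene averaged, array weights, the replicate block, only the groups compared, each array left out, and, added after seeing the data, both CsA arrays closest to an array without CsA left out. Genes without a probe set of a single symbol are not analysed here.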

Additional observations from a re-analysis of the deposited data

Results flagged for a closer look

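The results listed here were picked out because the CsA effect at 11 days differed from the mean of the effects at 12 h, 24 h and 48 h, by a limma contrast of the difference itself with Benjamini-Hochberg adjustment over all genes. Values are log2 differences, 11 days minus earlier.

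Among the enzymes of the mevalonate stage the difference was -0.48 for Hmgcs1, -0.29 for Pmvk, -0.54 for Mvd, -0.55 for Idi1 and -0.41 for Fdps. From squalene to cholesterol it was -0.75 for Fdft1, -0.63 for Sqle, -0.61 for Lss, -0.69 for Cyp51, -0.33 for Nsdhl, -0.40 for Msmo1, -0.75 for Hsd17b7 and -0.39 for Dhcr7. Among SREBP control genes it was -0.34 for Insig1, -0.27 for Stard4 and -0.25 for Srebf2, and 0.26 for Srebf1, the one that rose. The LXR and efflux genes gave 0.51 (Nr1h3), 0.36 (Mylip), 0.59 (Abca1) and 0.32 (Abcg1). Among the fatty acid genes Scd1 gave 1.34, Fads1 -0.47 and Fads2 -0.86.

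The calls of Pmvk, Fdps, Stard4, Srebf1 and Abcg1 were lost on leaving out some single arrays (10, 2, 5, 3 and 1 of the 24 arrays involved), and the other 19 kept theirs.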

How the results depend on the processing

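Of 757 values of named members under the other settings, none turned its sign and 23 lost the call, 16 of them with only the groups compared. Of 774 values with an array left out, 49 lost it, for 18 of the 91 results. Of 234 counts of called members, 26 moved by over 1.5 times. The cause was not tested, except that the groups alone leave fewer arrays to estimate the spread.

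With only the groups compared, the members called lower at 48 h of Flt3-L were 1, those higher from 12 h to 24 h 2, those higher with CsA 1 at 12 h, 9 at 24 h, 0 at 48 h and 3 at 11 days, those lower with CsA at 12 h 0, and those lower in the CsA effect at 48 h minus 12 h 1. With array weights the counts were 3 higher from 12 h to 24 h, 1 lower from 24 h to 48 h, 20 higher and 1 lower with CsA at 12 h, and 3 lower at 48 h minus 12 h. With an intensity trend and robust variances, and with the dimmest genes left out, they were 2 higher from 12 h to 24 h and 1 lower from 24 h to 48 h. Quantile normalization gave 1 lower from 24 h to 48 h and 7 higher with CsA at 48 h. Subtracted medians gave 2 lower from 48 h to 11 days and 1 lower with CsA at 12 h. With the replicate block, 2 were higher from 12 h to 24 h, 1 lower from 24 h to 48 h and 1 lower at 48 h minus 12 h. Beyond the calls given in the report, the block added Nr1h3 from 12 h to 24 h. With CsA at 12 h it added Hsd17b7 and Scd1 (adjusted p = 0.043 and 0.023), and at 11 days Msmo1. It also added Mylip in the early mean, Scd1 at 48 h minus 12 h and Sc5d at 11 days minus earlier. The comparisons of 2 groups among these did not have every correlation over 0.1. For those that combine several times no such correlation was computed. The block ended no call of a member. Without both CsA arrays closest to an array without CsA, 1 was lower with CsA at 12 h and 1 at 48 h minus 12 h.

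Leaving out single arrays gave 1 to 2 lower at 48 h of Flt3-L, 1 to 2 higher and 1 to 4 lower from 12 h to 24 h, 0 to 1 lower from 24 h to 48 h, and 3 to 5 lower from 48 h to 11 days. With CsA it gave 3 to 14 higher and 0 to 2 lower at 12 h, 10 to 18 higher at 24 h, 1 to 5 higher at 48 h, and 0 to 1 lower at 48 h minus 12 h.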
